A study of Homo sapiens with 4 samples.

Results

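A set of 9 genes of the complement system was followed in OVCAR-3 cells: the central component C3, the alternative pathway protease CFB, the C1 proteases C1R and C1S, the soluble regulators CFI and SERPING1, and the membrane regulators CD46, CD55 and CD59. They were found by symbol in the array annotation, which gave 9 of 18417 measured genes on 11 of 21214 named transcript clusters (a transcript cluster is the set of probes that stands for a gene). OVCAR-3 is an established human ovarian carcinoma line. Per the labels, 2 arrays came from OVCAR-3 cells given vectors lacking H1.3 (vector only) and 2 from OVCAR-3 cells overexpressing human H1.3, a linker histone; all were cultured in the same medium, and no other treatment is named. The arrays are called vector array 1 and 2 and H1.3 array 1 and 2 after the labels' replicate numbers. The labels call the replicates biological but do not say whether a group is 1 clone, a pool or several transfections. The errors below therefore speak only of variation between these arrays. The titles of the latter arrays carry an added (H) that no label explains.

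Complement is a cascade of plasma and cell surface proteins. The classical pathway starts with C1, in which C1R activates C1S, and the alternative pathway builds its C3-cleaving enzyme from a fragment of C3 and the protease fragment of factor B. Cleaved C3 tags surfaces and leads to the membrane attack complex. Host cells limit this with C1 inhibitor (SERPING1), which blocks C1R and C1S, with factor I (CFI), which cuts C3b with the help of cofactors such as CD46, with CD55, which speeds the decay of the C3-cleaving enzymes, and with CD59, which blocks the membrane attack complex. The liver makes most plasma complement, but epithelial cells and carcinoma cells also make components, and carcinoma cells often carry the membrane regulators.

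Values are log2 levels, and a difference is the mean of the arrays labelled H1.3 minus the mean of the vector-only arrays, with the standard error (SE) of a limma fit and n = 2 in each group. That SE combines a gene's own spread with a variance pooled over all named clusters, at 2 residual and 5.16 prior degrees of freedom. It can thus lie above or below what the gene's own arrays would give. The 9 genes were chosen with this contrast known, so their differences are given as a description, without a p. Over all genes, the median gap between the arrays of a group was 0.13 for vector only and 0.15 for H1.3, and the median absolute difference between groups was 0.12. The H1.3 gene itself, H1-3, measured 8.65 and 7.88 with vector only and 7.47 and 7.69 under the H1.3 label, lower where the label says overexpression, although the difference of -0.69 ± 0.24 (SE, limma adjusted p = 0.319) did not pass. Every direction below therefore refers to the arrays labelled H1.3. Levels are of bulk RNA, in which fewer cells expressing a gene and less RNA per cell cannot be told apart.

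C3 and CFB, the components of the alternative pathway's C3-cleaving enzyme, were the complement genes with the largest differences, both higher in the arrays labelled H1.3. CFB, which encodes factor B, measured 8.49 and 8.74 with vector only and 10.28 and 9.71 under the H1.3 label. The groups did not overlap, and H1.3 array 1 was the highest array. The difference was 1.38 ± 0.20 (SE), or 2.6-fold, and only 20 of 18417 genes had a higher one. It was 1.67 without H1.3 array 2 and 1.10 without H1.3 array 1, so it stayed above the 0.57 gap between the H1.3 arrays.

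CFB was measured on 3 transcript clusters that carry the same accessions, and the values above are those of the cluster with the highest mean. The other clusters gave 7.87, 8.07, 9.60 and 9.04, and 7.97, 8.17, 9.72 and 9.16, in the order vector arrays 1 and 2, then H1.3 arrays 1 and 2. Their differences were 1.35 and 1.37. The 3 clusters ordered the arrays alike; they are readings of 1 gene in the same RNA, not replicates.

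C3, whose cleavage is the step all activation pathways share, measured 11.28 and 11.34 with vector only and 12.05 and 11.97 under the H1.3 label. The arrays of each group lay within 0.06 and 0.08 of each other, and the groups were far apart on that scale. The difference was 0.70 ± 0.12 (SE), or 1.62-fold, with 175 of 18417 genes higher. Leaving out each array in turn gave 0.66 to 0.74, the narrowest range relative to its size among the 9 genes.

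**Figure D1:**
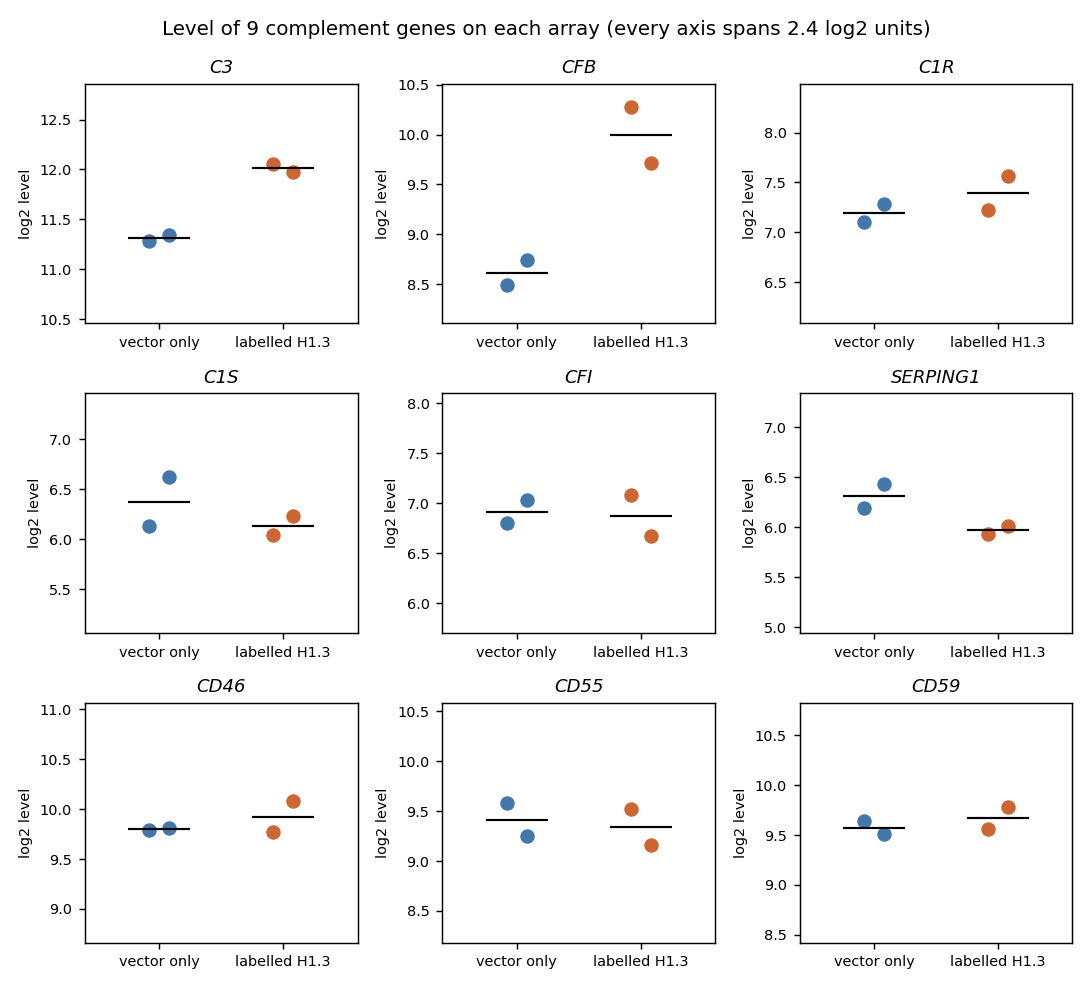
Log2 level of each of the 9 complement genes (vertical axis, 2.4 log2 units in every panel) on the 2 vector-only arrays (blue) and the 2 arrays labelled H1.3 (orange), with the group mean as a line. C3 (11.28 and 11.34 against 12.05 and 11.97) and CFB (8.49 and 8.74 against 10.28 and 9.71) separate upwards and SERPING1 downwards, while the groups of the other 6 genes overlap.

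Of the 9 genes, 1 (CFB) was past an adjusted p of 0.05 in limma, beside 0.494% of all genes. The adjustment was Benjamini-Hochberg, over all named clusters. Since this contrast was known when the genes were chosen, nothing is read from that count or from those under the settings below. CFB also passed when only clusters with 1 symbol were tested, and C3 passed with it under a robust intensity trend or at an adjusted p of 0.10. None of the 9 passed after a second quantile normalization, with the arrays at a common median, with all transcript clusters or with the replicate number as a block. Without clusters below the median level, C1S and SERPING1 were not tested, and none of the remaining 7 passed. The groups did not overlap for 3 of the 9 genes, 2 higher and 1 lower, beside 40.8% of all genes (21.6% higher and 19.3% lower).

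The promoter of CFB is shown because CFB had the largest difference. The 250 bases before its start (RefSeq, GRCh38.p14, chr6:31945845-31946094, plus strand) were searched, with the 50 bases after it, on both strands for 4 motifs of factors known to act on inflammatory genes. They were the STAT site TTCNNNGAA, the interferon response element (ISRE) core GAAA, any 2 bases, GAAA, the C/EBP site TTGCNNAA and the NF-kB consensus. Capitals mark an ISRE core match on the minus strand, starting 140 bases before the start, and a STAT match, starting 92 bases before it; these matches do not overlap.
CFB promoter: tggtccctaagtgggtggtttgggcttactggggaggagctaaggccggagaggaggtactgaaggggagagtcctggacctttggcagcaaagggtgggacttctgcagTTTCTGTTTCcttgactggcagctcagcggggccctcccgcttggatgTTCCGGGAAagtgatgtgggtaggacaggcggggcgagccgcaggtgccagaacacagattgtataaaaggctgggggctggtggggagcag

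The table of promoters held 11 windows for 6 of the 9 genes: CFB, C1R, CFI, CD46, CD55 and CD59. C3, C1S and SERPING1 were not searched. The STAT site was found in 4 windows of 3 genes (CFB, C1R and CD59, whose matching windows overlap), and in 7.66% of all 35097 promoter windows of this length. The ISRE core was found in 1 window, that of CFB, and in 3.58% of all windows. The C/EBP site was found in 3 windows of C1R and CD59 and in 10.5% of all windows, and the NF-kB consensus in 0 of the 11 and in 5.9% of all. The STAT matches of the 3 genes are set out in capitals with 10 bases on each side, on the strand of the gene; C1R lies at chr12:7091971-7091979 and CD59 at chr11:33736599-33736607, both on the minus strand of GRCh38.p14, and CFB at chr6:31946003-31946011.
CFB: cgcttggatgTTCCGGGAAagtgatgtgg
C1R: gccagtcctaTTCCTGGAAggggagggga
CD59: ccacccggccTTCTCAGAAcctgggccag

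These matches say only that the letters occur; C1R and CD59, which share the STAT pattern with CFB, had small differences, described next.

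The C1 proteases differed in opposite directions, and neither separated the groups. C1R, the protease that starts the classical cascade, measured 7.10 and 7.28 with vector only and 7.22 and 7.56 under the H1.3 label. Its groups overlapped, and the difference was 0.20 ± 0.15 (SE). It ran from 0.03 without H1.3 array 2 to 0.37 without H1.3 array 1, with 0.11 and 0.29 without vector arrays 1 and 2, in that order. C1S, the protease that C1R activates, measured 6.13 and 6.62 with vector only and 6.04 and 6.23 under the H1.3 label. Here vector array 2 stood above the other arrays, and the gap of 0.49 between the vector-only arrays exceeded the difference of -0.24 ± 0.18 (SE). The difference was 0.01 without vector array 2, -0.49 without vector array 1 and -0.15 without H1.3 array 1. C1S lay below the median level of the named clusters, 6.84. C1RL, a related protease gene next to C1R, differed by -0.10 with an adjusted limma p of 0.857.

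Of the soluble regulators, SERPING1 was lower in both arrays labelled H1.3 and CFI was not separated. SERPING1, C1 inhibitor, measured 6.19 and 6.43 with vector only and 5.93 and 6.01 under the H1.3 label. Its groups did not overlap, by a margin of less than the gap between the vector-only arrays. The difference was -0.34 ± 0.13 (SE), the lowest of the 9, and 6.36% of all genes had a lower one. It was -0.22 without vector array 2 and -0.46 without vector array 1, and the gene too lay below the median level. CFI, the protease that inactivates C3b and C4b, measured 6.80 and 7.03 with vector only and 7.08 and 6.67 under the H1.3 label. The H1.3 arrays were the highest and the lowest of the 4, and the difference of -0.04 ± 0.17 (SE) changed sign with the array left out, from -0.25 without H1.3 array 1 and -0.16 without vector array 1 to 0.08 without vector array 2 and 0.17 without H1.3 array 2.

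The 3 membrane regulators stood well above the median level on every array, and their groups overlapped. CD46, the cofactor of factor I on cells, measured 9.79 and 9.81 with vector only and 9.77 and 10.08 under the H1.3 label. Only H1.3 array 2 was apart, and the difference of 0.13 ± 0.14 (SE) was -0.03 without it and 0.28 without H1.3 array 1. CD55, decay-accelerating factor, measured 9.58 and 9.25 against 9.52 and 9.16. Its arrays fell by replicate number rather than by group, since replicate 1 of each group lay above both of the replicates numbered 2, and the difference of -0.08 ± 0.17 (SE) ran from -0.26 without H1.3 array 1 and -0.24 without vector array 2 to 0.09 and 0.11 without vector array 1 and H1.3 array 2. CD59, the inhibitor of the membrane attack complex, measured 9.64 and 9.51 against 9.56 and 9.78. Its difference was 0.10 ± 0.13 (SE), with -0.02 without H1.3 array 2, 0.03 without vector array 2, 0.16 without vector array 1 and 0.21 without H1.3 array 1. With 2 arrays in a group, differences of the size of these errors, of either sign, could not be told from 0 for the 3 regulators.

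**Figure D2:**
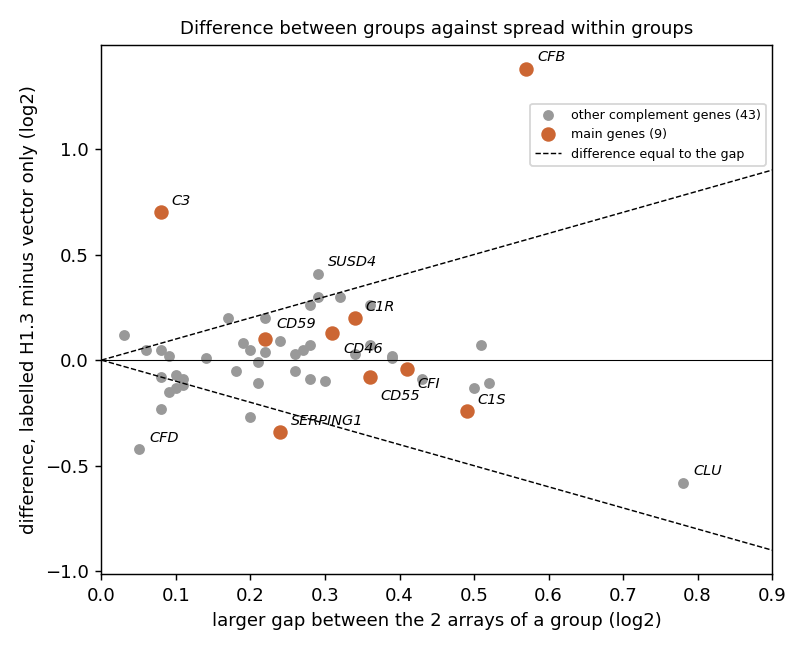
Difference between the arrays labelled H1.3 and vector only (vertical axis, log2) against the larger of the gaps between the 2 arrays of a group (horizontal axis, log2), for the 9 genes (orange) and 43 other complement genes (grey), with dashed lines where the difference equals the gap. CFB (1.38 at a gap of 0.57) and C3 (0.70 at a gap of 0.08) lie far above the lines, SERPING1 lies just below the lower line, and C1R, C1S, CFI, CD46, CD55 and CD59 lie between them.

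Beyond the 9, a list of 50 further complement genes held 43 that were measured on clusters of their own. Like the 9 genes, this list and the lists below were chosen with earlier results of these data known. Their counts are therefore given as a description. None of the 43 passed limma over all named clusters in either direction, where 0.494% of all genes did. An unadjusted limma p under 0.05 was found for 2, where 11.8% of all genes had one. Positive differences numbered 24 and negative ones 19, with a median of 0.02, as over all genes. The groups did not overlap for 14 of the 43, 7 in each direction, beside 40.8% of all genes. Of these genes 37 lay below the median level, and a p that misses the threshold does not show that a gene did not differ. The others were not analysed here as single genes, among them C4A and C4B, which share their clusters.

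Among the other activating components of the classical, lectin, alternative and terminal pathways, the largest absolute difference was that of CFD. CFD, factor D, the protease that cleaves factor B, measured 8.32 and 8.29 with vector only and 7.86 and 7.91 under the H1.3 label, tight within groups and without overlap. Its difference was -0.42 ± 0.11 (SE, limma adjusted p = 0.185), opposite in sign to that of its substrate CFB. Factor P (CFP), which stabilises the C3-cleaving enzyme, differed by 0.07 with an adjusted p of 0.924. C2, the classical pathway's counterpart and near neighbour of CFB, measured 4.79 and 5.01 against 5.16 and 5.03, dim throughout, and differed by 0.20 ± 0.13 (SE, limma adjusted p = 0.652). Its difference was 0.09 without vector array 1, 0.13 without H1.3 array 1 and 0.31 without vector array 2. The 3 clusters shared by C4A, C4B and C4B_2, which encode C4, held identical values and measured 5.35 and 5.31 against 5.56 and 5.38, a difference of 0.14. The C1q chains C1QA, C1QB and C1QC differed by 0.05, -0.05 and 0.08.

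The 8 lectin pathway genes and the 7 terminal pathway genes had no member past the test, which 0.494% of all genes passed. FCN3, ficolin 3, a recognition protein of the lectin pathway, had the largest difference of the former, 0.26 ± 0.15 (SE, limma adjusted p = 0.585); it was 0.08 without vector array 2 and 0.44 without vector array 1. C7, a component of the membrane attack complex, had the largest of the latter, 0.26 ± 0.15 (SE, limma adjusted p = 0.581), between 0.12 without H1.3 array 1 and 0.40 without H1.3 array 2. All 7 terminal genes lay below the median level.

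Other regulators and receptors also gave no calls, beside 0.494% of all genes. CLU, clusterin, a soluble inhibitor of the membrane attack complex, measured 12.13 and 11.35 with vector only and 11.54 and 10.78 under the H1.3 label. The groups overlapped, and the difference was -0.58 ± 0.31 (SE, limma adjusted p = 0.55). It was -0.19 without vector array 1, -0.20 without H1.3 array 2, -0.97 without vector array 2 and -0.96 without H1.3 array 1. Each array numbered 1 lay above both numbered 2, as for CD55, and within each number the H1.3 array was the lower. SUSD4, a membrane protein with complement control modules, measured 8.08 and 7.79 against 8.42 and 8.26, without overlap, and differed by 0.41 ± 0.14 (SE, limma adjusted p = 0.323); without vector array 2 the difference was 0.26. C5AR1, the receptor of the C5a fragment, was higher on both H1.3 arrays and differed by 0.30 ± 0.14 (SE, limma adjusted p = 0.509), 0.15 without H1.3 array 2 and 0.44 without H1.3 array 1. The clusters of CFHR4 disagreed in sign at -0.06 and 0.05, both within their errors.

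**Figure D3:**
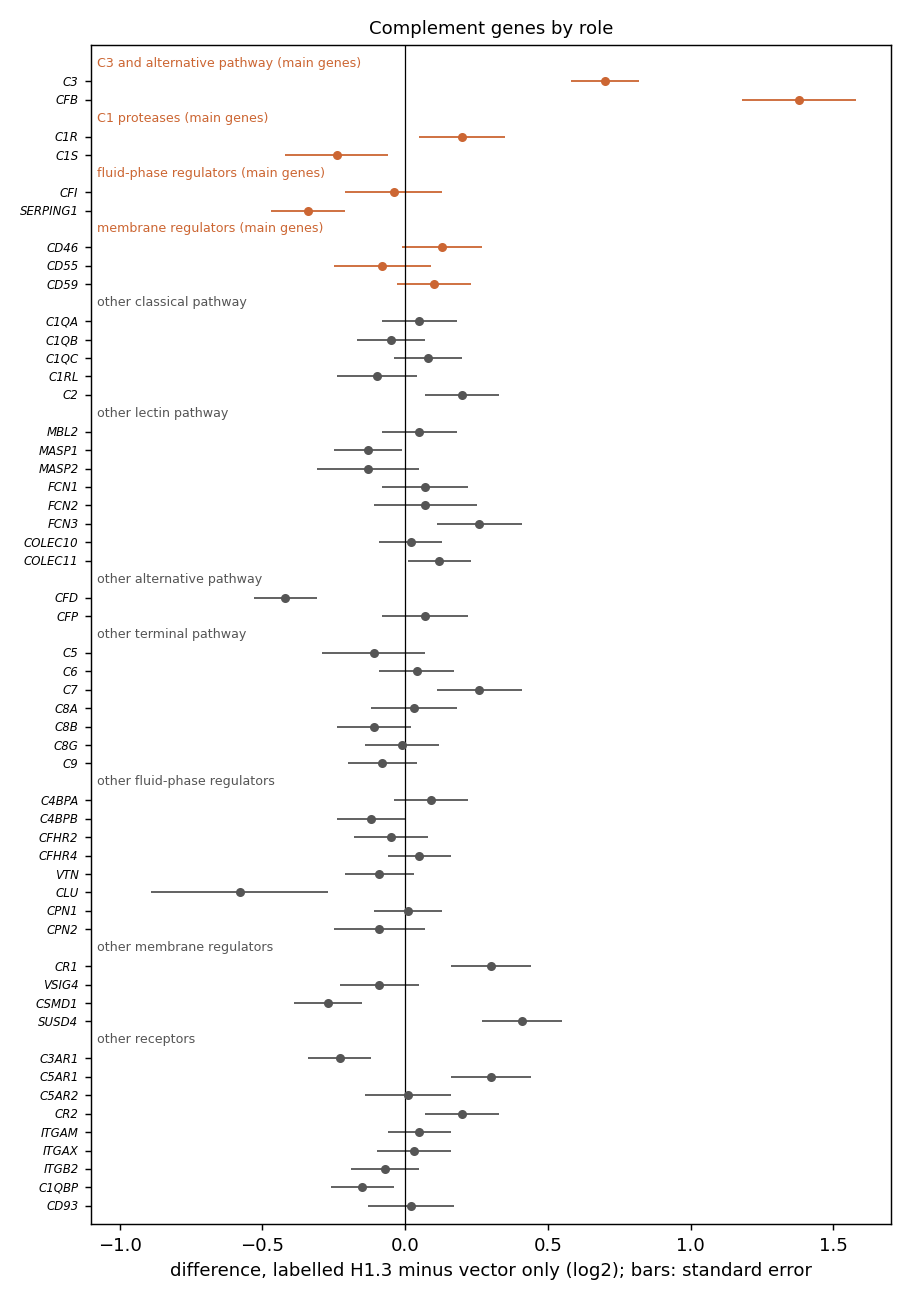
Difference between the arrays labelled H1.3 and vector only (horizontal axis, log2, with the SE of the limma fit as bars) for the 9 main genes (orange) and 43 other complement genes (grey), grouped by role. CFB at 1.38 and C3 at 0.70 lie to the right of all others, and the 43 other genes run from -0.58 (CLU) to 0.41 (SUSD4).

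Genes that carry signals to complement genes, such as the interleukin 6 and interferon gamma receptors with their kinases and transcription factors, were listed as context. This list too was chosen with earlier results of these data known. Of 17 measured, 0 passed limma over all named clusters, where 0.494% of all genes did. At an unadjusted limma p under 0.05, 4 were higher and 1 lower, beside 11.8% of all genes. The median difference was 0.17 beside 0.02 over all genes. IRF1, a transcription factor of the interferon response, measured 7.51 and 7.09 with vector only and 8.28 and 7.81 under the H1.3 label, and differed by 0.75 ± 0.20 (SE, limma adjusted p = 0.185). IL6 differed by 0.70 ± 0.15 (SE, limma adjusted p = 0.111), at levels of 4.54 to 5.49. The groups of IRF1 and of IL6 did not overlap. The same held for 12 of the 17 genes, 9 higher and 3 lower, where 40.8% of all genes had groups apart.

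Acute-phase proteins, plasma proteins made along with complement in inflammation, had 9 positive and 6 negative differences, where 53.9% of all genes were positive. Of 15 measured, 0 passed limma, beside 0.494% of all genes. At an unadjusted limma p under 0.05, 3 were higher and 1 lower, beside 11.8% of all genes. The median difference was 0.02. LCN2, the iron-sequestering protein lipocalin 2, measured 8.58 and 9.11 against 10.37 and 9.76, and differed by 1.22 ± 0.24 (SE, limma adjusted p = 0.0951). SERPINA1, the elastase inhibitor alpha-1-antitrypsin, measured 7.41 and 7.17 against 6.55 and 6.59, and differed by -0.72 ± 0.13 (SE, limma adjusted p = 0.082). The groups of LCN2 and of SERPINA1 did not overlap, in opposite directions.

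The genes whose pattern over the 4 arrays was closest to that of CFB were PGCKA1, SERPINB7, HLA-DPA1 (on a pair of clusters) and LCN2. Likeness was the root mean square distance between mean-centred log2 levels over the 4 arrays, 0.077 for PGCKA1 and 0.128 for LCN2. HLA-DPA1, a chain of an MHC class II molecule, measured 4.52 and 4.51 with vector only and 6.21 and 5.76 under the H1.3 label on these clusters, with H1.3 array 1 again the highest array. Its difference there was 1.47 ± 0.16 (SE, limma adjusted p = 0.0264). As it was picked for likeness to CFB, nothing is read from that p. For C3 the closest were IRAK1, a kinase of interleukin 1 and Toll-like receptor signalling, DCAF12L1, SPCS3, a signal peptidase subunit, NAP1L5 and BCORP1, at distances of 0.011 to 0.048. IRAK1 measured 8.83 and 8.87 against 9.57 and 9.50. With 4 arrays in 2 groups, this likeness is mostly a likeness of the difference between groups.

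Neighbouring genes were set beside the 9, since genes along parts of the genome can shift together. For each gene the 15 measured genes on either side in RefSeq order were taken, 30 in all. No neighbour of CFB reached its difference. Theirs ran from -0.47 to 0.26, with a median of 0.04. The 15 genes on one side ended at HLA-DOB (-0.03), and HLA-DPA1, described above, was not among the 30. C3 also stood above all of its neighbours, which ran from -0.46 to 0.51 with a median of 0.09, and 23 of the 30 were positive, beside 53.9% of all genes. Around CD55 and CD46, which lie in the same cluster of complement regulator genes, 25 and 24 of 30 neighbours were positive with a median of 0.08. These sets of neighbours share most of their genes, as do those of C1R and C1S, so they are not separate observations. CD55, at -0.08, was below 28 of its 30. Around SERPING1 15 were positive and 15 negative, with a median of 0.00, and the neighbour medians of C1R, C1S, CFI and CD59 lay between 0.00 and 0.02. Neighbours at or above the median level lay further from 0 around several genes. Their medians were 0.27 for CD55 (8 neighbours), 0.25 for CD46 (7), 0.19 for C3 (19) and 0.10 for CFB (11). They were -0.24 for SERPING1 (9 neighbours), -0.15 for C1R (13), -0.10 for C1S (15) and -0.05 for CFI (15), and 0.00 for CD59 (20). The part of neighbourhood in any of these differences was not tested.

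**Figure D4:**
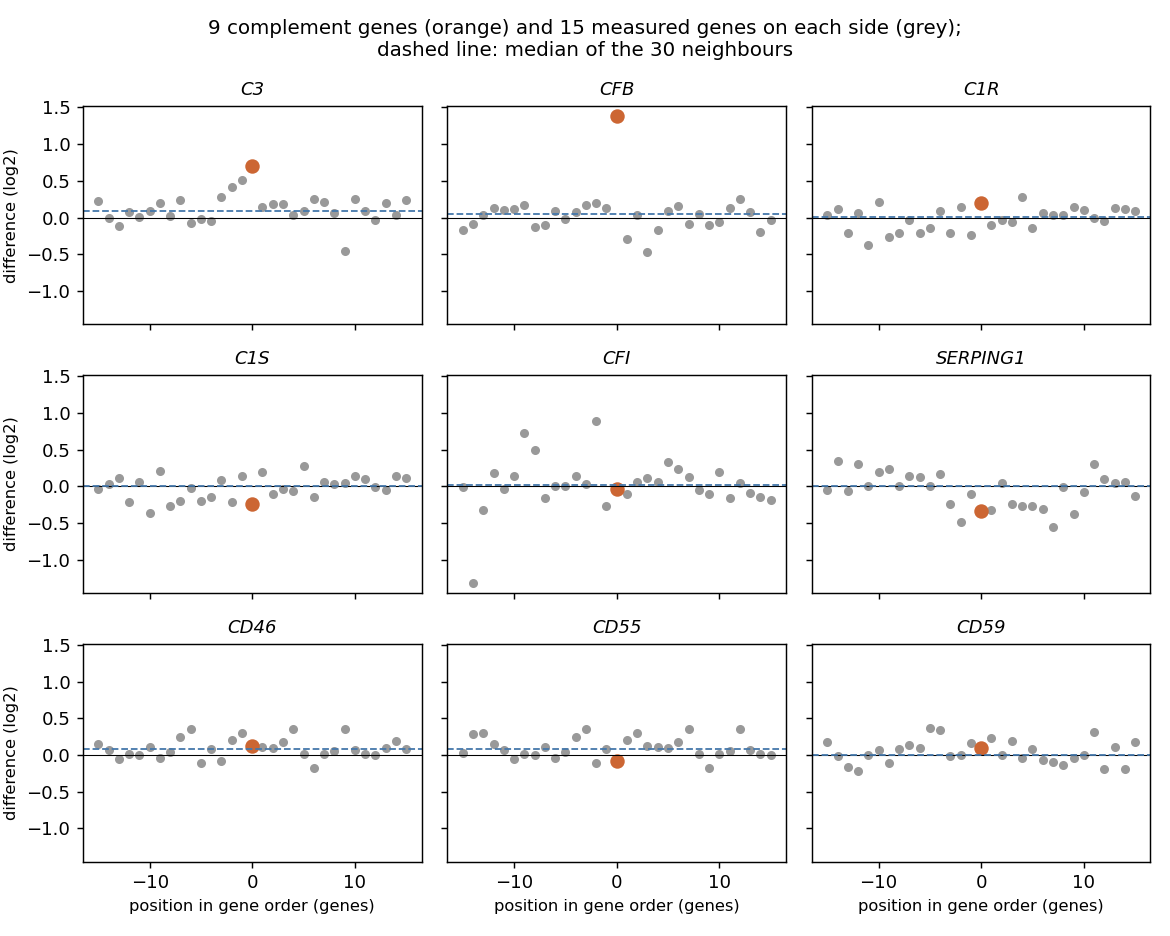
Difference between the arrays labelled H1.3 and vector only (vertical axis, log2) for each of the 9 complement genes (orange) and the 15 measured genes on each side of it (grey), by position in the gene order (horizontal axis, genes), with the neighbour median as a dashed line. CFB at 1.38 and C3 at 0.70 stand above all 30 of their neighbours, whose medians are 0.04 and 0.09.

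Cell identity was checked against markers. All 10 ovarian carcinoma markers, among them PAX8, EPCAM and KRT8, lay above the median level on every array (8.74 to 13.13). None passed limma, where 0.494% of all genes did. At an unadjusted limma p under 0.05, 2 were lower, EPCAM (-0.57) and MSLN (-0.49), and 0 were higher, beside 11.8% of all genes in either direction. Of cells that make complement, all 10 hepatocyte markers and all 10 macrophage and leukocyte markers measured had a mean below the median level, at 2.83 to 6.98 and 3.13 to 6.42, and none passed. The median level of the macrophage and leukocyte markers was 4.58 to 4.61 in the vector-only arrays and 4.74 to 4.78 in the arrays labelled H1.3, with 1 of 10 higher at an unadjusted p under 0.05, and that of the hepatocyte markers was 4.61 to 4.65 and 4.68 to 4.74. Of 9 fibroblast markers 8 lay below the median level and none passed; of the hepatocyte and fibroblast markers, 0 had an unadjusted p under 0.05. The part of other cells in the CFB and C3 differences was not tested.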

How the data were processed

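Levels are log2 values that the authors deposited, 1 column for each array, over 33297 transcript clusters. The submitters' processing notes name RMA and Affymetrix Expression Console without versions, and no source used here names a genome build. RMA subtracts background and equalises array distributions; probe intensities were not analysed here. The identifiers match the annotation of a human gene array, although the series text speaks of an exon array. Clusters with 1 symbol numbered 19460, with several 1754 and with none 12083; symbols were updated to RefSeq (GRCh38.p14), which held 19429 of the first kind.

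limma 3.58.1 (R 4.3.3; lmFit and eBayes, two-sided, 2 residual and 5.16 prior degrees of freedom) compared the groups over the 21214 named clusters, with Benjamini-Hochberg adjustment and a threshold of 0.05. The number of arrays limits the precision; the median SE was 0.13. Where a gene had several clusters, that of highest mean was used, except in the search for similar patterns. The 9 genes and all lists were chosen with earlier results of these data known. Also named were any complement gene that passed, the largest difference in each role, passing members or the 2 largest differences of the context lists, and the 5 clusters most like CFB and C3. Alternatives changed moderation, scaling, filter, clusters and threshold, used the replicate number as a block or left out arrays. The fit was tested on simulated data. Protein sequences were not used here. Plots used matplotlib 3.10.9 (Python 3.11.15).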

Additional observations from a re-analysis of the deposited data

How the results depend on the processing

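In every alternative run, the 43 other complement genes gave 0 calls in either direction, with 1 to 3 at an unadjusted limma p under 0.05; only 6 of them were tested once dim clusters (below the median level) were left out. All 63 recomputed differences of the 9 genes moved by no more than the spread between replicates. For the fits that leave out an array this follows from their construction. The same holds for the mean over all clusters of a gene, except for CFB, since every other gene of the 9 has a single cluster. Of the 9 genes, 1 passed in the main test. That count, added after seeing the data, was 2 under a robust trend and 2 at the threshold of 0.10. It was 0 when quantile normalization was repeated, 0 at a common median, 0 when unnamed clusters were added and 0 with the replicate block. Without dim clusters it was 0 of the 7 genes still tested. Nothing is read from these counts, because the genes were chosen with this contrast known. Calls over the whole table, 51 higher and 56 lower, became 107 and 138 under the robust trend and 135 and 176 at the threshold of 0.10. They were 29 and 38 on repeated quantile normalization, and 39 and 46 when only clusters with 1 symbol were tested. At one common median they were 19 and 31, without dim clusters 6 and 19, and with unnamed clusters added 1 and 3. The replicate block gave 0 and 0 calls in limma, with 2195 clusters at an unadjusted p under 0.05. Replicate differences correlated at 0.06 between the groups over all named clusters. Whether arrays of the same number share more than a label was not tested. Leaving out each array gave 0 to 0 calls for the 9 genes and for either direction over the table (1292 to 2367 at an unadjusted p under 0.05), a single remaining array being assumed as variable as its counterparts. The cause of these shifts was not tested.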

Other observations

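The genes next to C3 on one side encode ligands of the tumour necrosis factor family and were picked out after their values were seen. TNFSF14, which encodes LIGHT, measured 6.85 and 6.75 with vector only and 7.58 and 7.04 under the H1.3 label, and differed by 0.51 ± 0.18 (SE, limma adjusted p = 0.337), with 0.24 without H1.3 array 1 and 0.78 without H1.3 array 2. CD70, the ligand of CD27, measured 6.06 and 6.32 against 6.40 and 6.82, and differed by 0.42 ± 0.17 (SE, limma adjusted p = 0.412), with 0.21 without H1.3 array 2 and 0.63 without H1.3 array 1. TNFSF9, the 4-1BB ligand, measured 6.81 and 7.24 against 7.13 and 7.47, with overlapping groups and an adjusted p of 0.648. None of these passed, and the highest array was H1.3 array 1 for TNFSF14 and C3 but H1.3 array 2 for CD70 and TNFSF9.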
